A study of Mus musculus with 12 samples.

Results

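The B cell receptor signals through a chain of kinases, adaptors and second messengers, and a second set of receptors and phosphatases holds that chain back. The genes described here are 33 members of this system, chosen by symbol from a list that leaves out the receptor's own chains Cd79a and Cd79b. That list was made with earlier results of these data known. Counts and medians of members set against all genes are therefore descriptions, not independent tests. All 33 were present among the 24421 gene symbols counted, and all 33 passed the filter on low counts that left 12878 genes for testing. By textbook role, 21 members activate signalling, 8 inhibit it, and 4 (Lyn, Ptprc, Grb2 and Bank1) do both or are disputed.

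RNA was sequenced from B220+ splenocytes of 12 mice aged 4 to 5 weeks, with cells of 1 mouse in each library and 3 mice per genotype. The first group has intact Max (WT), and the second is a conditional knockout of Max (Max KO). The third group carries the EuMyc transgene, which places Myc under the enhancer of the immunoglobulin heavy chain and so acts in the B lineage, with intact Max (EuMyc), and the fourth carries the transgene and the conditional knockout together (EuMyc Max KO). Both EuMyc groups were described as premalignant, and the Cre driver of the knockout is not given in the sources used here. MYC binds DNA as a dimer with MAX, and MAX also forms dimers with repressors (the MXD family, MNT and MGA). Levels are in CPM, which scales the reads of a gene to the same total in each library (TMM). A gene "rose" or "fell" here only where edgeR's quasi-likelihood test gave a Benjamini-Hochberg adjusted p under 0.05 over all 12878 genes, and SE is the standard error of a log2 fold change.

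When antigen binds the receptor, SRC family kinases (LYN, BLK, FYN) phosphorylate the CD79 chains, SYK docks there, and SYK with BTK activates phospholipase C gamma 2 through the adaptor BLNK. The products open calcium and diacylglycerol branches that end in NFAT, RAS and, through PKC beta, BCL10 and MALT1, NF-kB. PI3 kinase adds a branch to AKT. CD22, CD72 and the Fc receptor FCGR2B carry inhibitory tyrosine motifs that recruit the phosphatases SHP-1 (Ptpn6) and SHIP-1 (Inpp5d). In spleen, the strength of this signalling changes as immature B cells become follicular and marginal zone cells.

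Because the study removes a DNA-binding partner of MYC, the members' promoters were searched for CACGTG, the palindromic E-box bound by MYC with MAX. Promoters were taken from RefSeq (GRCm38.p6, the assembly of mm10) as 300-base windows, 250 bases before and 50 from each start site, and held 29 of the 33 members in 39 windows. CACGTG was present in 2 of these 39 windows (5.13%), against 7.15% of all 32851 windows in the table. The 2 members with a match are Plcg2 and Pik3ap1, and both are shown because they are the members whose window carries the site. A second search, also made with the members' values known, was for GGAAGT on either strand (ACTTCC on the other), a core bound by ETS factors such as PU.1 that are active in B cells. It was present in 20 of 39 member windows (51.3%) and 23.8% of all windows, and in 18 of the 29 members and 26.5% of all 27025 genes with a window. The 4 stretches with this core belong to members whose levels are described in full below. Other such members with the core, among them Sh3bp2 and Ptpn6, are not shown. Capitals mark the match, no stretch runs past the start site or into an annotated exon, and a match describes letters, not a bound site.
Plcg2, chr8:117498215-117498274, plus strand: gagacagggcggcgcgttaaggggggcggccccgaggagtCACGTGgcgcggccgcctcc
Pik3ap1, chr19:41385229-41385314, minus strand: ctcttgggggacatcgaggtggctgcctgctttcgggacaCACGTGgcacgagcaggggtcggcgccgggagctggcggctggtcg
Rasgrp3, chr17:75435817-75435895, plus strand: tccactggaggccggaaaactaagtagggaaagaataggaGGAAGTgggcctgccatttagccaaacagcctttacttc
Nfatc2, chr2:168601722-168601807, minus strand: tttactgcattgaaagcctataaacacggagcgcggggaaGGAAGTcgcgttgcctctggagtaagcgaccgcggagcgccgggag
Bank1, chr3:136326083-136326168, minus strand: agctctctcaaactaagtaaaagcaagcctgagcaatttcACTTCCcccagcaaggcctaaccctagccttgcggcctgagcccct
Cd72, chr4:43454630-43454715, minus strand: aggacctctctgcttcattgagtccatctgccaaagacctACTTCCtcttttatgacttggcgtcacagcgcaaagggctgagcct

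Between 14973332 and 21671601 reads per library fell in genes, and no member had fewer than 79 reads in any library. Max ranged over 109 to 139 CPM (WT), 99.8 to 102 (Max KO), 126 to 130 (EuMyc) and 102 to 108 (EuMyc Max KO). It was not called in Max KO against WT (log2 -0.23, adjusted p = 0.0623, edgeR). Reads of undeleted exons still count, so counts per gene do not show how complete the deletion was. The words "without Max" and "loss of Max" here refer to the knockout genotype, not to a measured absence. B lineage markers were abundant in all 4 groups (Cd79a, Cd79b, Ms4a1 and Pax5 at group means of 143 CPM or more), but the summed level of 8 such markers went from 18200 to 20800 CPM in WT to 7110 to 8570 in EuMyc. Cd74 was the largest part of this sum, at means of 11430 CPM in WT and 2648 in EuMyc. In EuMyc against WT 6 of the 8 fell, 1 was not called and Pou2af1 rose (means of 653 CPM in WT and 1102 in EuMyc). In the same comparison the summed level of the 10 pro-B and pre-B markers went from 82.6 to 92.1 up to 582 to 662 CPM. Of the 9 tested genes among them 7 rose and 1 fell, and Rag1 was the largest part of the EuMyc sum (mean of 337 CPM). The sum of the 9 markers of mature follicular and marginal zone cells went from 3660 to 4150 down to 381 to 522, and all 9 fell. Summed markers of T cells (123 to 147 against 32.7 to 35.1 CPM, 12 genes) and NK cells (22.6 to 37.8 against 4.16 to 10.3, 9 genes) were also lower in EuMyc. So were those of macrophages (1500 to 1840 against 739 to 888, 12 genes) and dendritic cells (710 to 775 against 246 to 288, 11 genes). Lck was the largest part of the T cell sums (means of 69.7 CPM in WT and 20 in EuMyc). Irf8 was the largest part of the dendritic cell sums (560 and 212). Of tested genes 11 of 11 T cell, 7 of 9 NK cell, 10 of 12 macrophage and 9 of 11 dendritic cell genes fell. In each of the last 2 lists 1 gene rose. The erythroid sum was higher in EuMyc (314 to 403 against 63.9 to 286 CPM), where 3 of 8 tested genes rose and 0 fell. In EuMyc Max KO the mature markers were at 3130 to 3870 CPM and the pro-B and pre-B markers at 78.6 to 117, but 10 erythroid markers reached 953 to 5280 CPM against 63.9 to 286 in WT, highest in replicates 1 and 2. Vpreb3, at means of 67.4 CPM in WT and 56.3 in EuMyc Max KO, was the largest part of both pro-B and pre-B sums. Of the 9 tested genes of that list, 5 were called higher in EuMyc Max KO than in WT and 0 lower (median log2 fold change 1.8). Of the markers in the files, only Vpreb2 (WT and Max KO), Hba-a1 (WT, Max KO and EuMyc) and Hbb-bt (all groups) had no read in a whole group. Several members, among them Fyn, Syk, Lyn, Ptpn6, Inpp5d and Fcgr2b, are also expressed by T or myeloid cells. The part that these other cells, or the stage of the B cells, have in the results was not tested, and in bulk RNA fewer cells of a type and less RNA per cell cannot be told apart.

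With Max present, the Myc transgene went with lower levels of nearly the whole system. Of the 33 members 31 fell and 1, Akt1, rose in EuMyc against WT, where 71.6% of all tested genes were called (34.9% fell and 36.7% rose). The median log2 fold change of the members was -0.86, against 0.01 over all tested genes. The size ranged widely, from -3.85 for Rasgrp3 to -0.15 for Dok3. The 3 EuMyc libraries lay below all 3 WT libraries for 32 members and above them for 1. Of all tested genes 77.4% had groups that did not overlap (4848 below and 5119 above). The heat map of all members by library shows this as a blue block in the EuMyc columns.

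**Figure D1:**
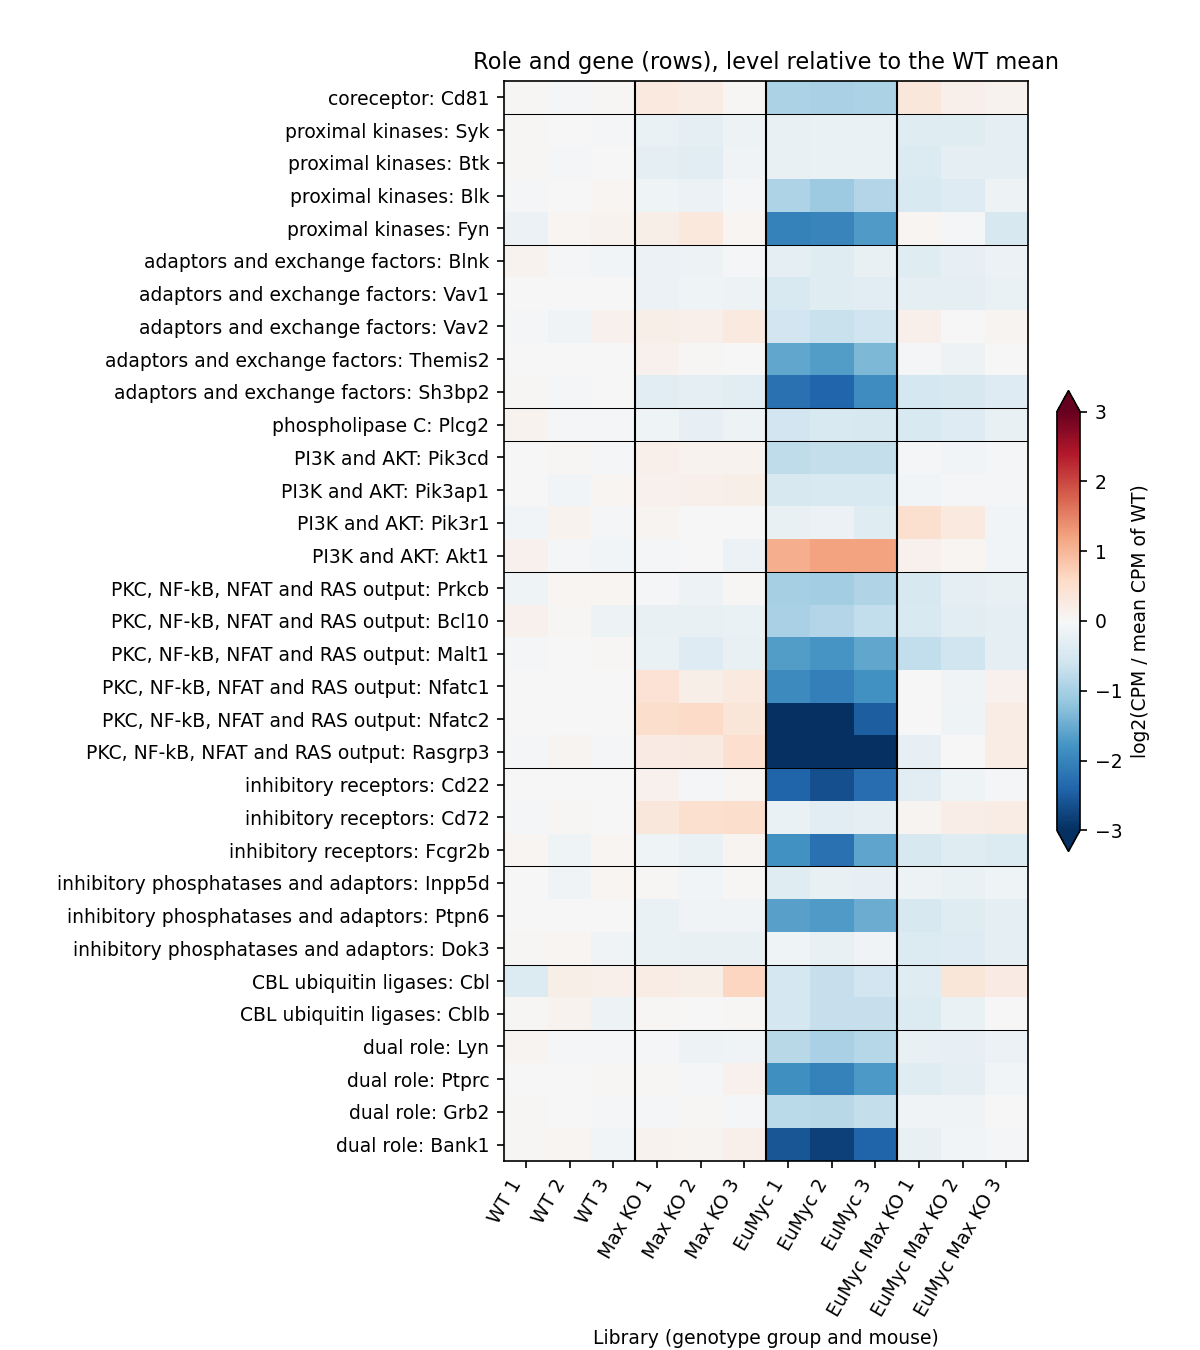
Each row is a gene with its role and each column a library, and the colour is log2 of CPM over the WT mean (blue lower, red higher, saturated beyond 3). The EuMyc columns are blue for all rows but Akt1, and the EuMyc Max KO columns lie close to the WT and Max KO columns.

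Of the members at the output end of the pathway, Rasgrp3 and Nfatc2 had the lowest fold changes of all 33. Rasgrp3, an exchange factor that turns on RAS downstream of diacylglycerol (mm10 chromosome 17, 75435896 to 75529054), was at 235, 260 and 239 CPM (WT), 289, 295 and 346 (Max KO), 15.4, 13.1 and 22.4 (EuMyc) and 206, 248 and 285 (EuMyc Max KO). Only the EuMyc libraries were low, and they were separated from every other library by a wide gap. The decrease was 14.4-fold (log2 -3.85, SE 0.191; edgeR's adjusted p = 1.78e-08). Nfatc2, a calcium-responsive transcription factor (chromosome 2, 168476410 to 168601657), read 39.2, 40 and 39.7 CPM (WT), 56.7, 59.1 and 51.1 (Max KO), 4.21, 4.20 and 7.16 (EuMyc) and 39.3, 36 and 46.1 (EuMyc Max KO). Its EuMyc libraries were again the low ones, with a decrease of 7.64-fold (log2 -2.93, SE 0.174). Nfatc1, its relative, read 317, 324 and 320 CPM (WT), 436, 364 and 392 (Max KO), 85.9, 77.3 and 91.6 (EuMyc) and 320, 300 and 350 (EuMyc Max KO), a decrease of 3.77-fold with the transgene (log2 -1.92, SE 0.0844). Malt1, the protease of the complex that links PKC beta to NF-kB, fell by 1.67 on the log2 scale (SE 0.102), its partner Bcl10 fell by 0.86 and Prkcb, PKC beta itself, fell by 0.98. All 6 members of this output group fell, with a median of -1.79.

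Kinases and adaptors at the receptor split by size of change. Syk, the kinase without which the receptor cannot signal, read 1519, 1494 and 1421 CPM (WT), 1291, 1235 and 1320 (Max KO), 1260, 1291 and 1277 (EuMyc) and 1140, 1149 and 1218 (EuMyc Max KO). WT libraries were the highest, and the other 3 groups lay within a narrow band below them (EuMyc against WT log2 -0.21, SE 0.0581). Btk, the TEC family kinase mutated in X-linked agammaglobulinaemia, read 289, 274 and 288 CPM (WT), 235, 228 and 265 (Max KO), 241, 249 and 248 (EuMyc) and 213, 231 and 231 (EuMyc Max KO), again with WT highest and EuMyc Max KO lowest by group mean (EuMyc against WT log2 -0.21, SE 0.0625). Blnk (-0.28), Vav1 (-0.38) and Plcg2 (-0.50) were also lowered by less than 0.6 log2 units. The SRC family kinases went further, Blk by -0.95 and Fyn, the member of this family that T cells also use, by -1.90 log2 units.

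Among adaptors the larger decreases were in Sh3bp2 and Themis2. Sh3bp2, which binds SYK and VAV proteins, read 184, 173 and 178 CPM (WT), 142, 149 and 143 (Max KO), 38, 34 and 48.7 (EuMyc) and 124, 128 and 135 (EuMyc Max KO). The groups did not overlap in EuMyc against WT (log2 -2.15, SE 0.102). Themis2, a B cell scaffold that lowers the threshold for activation, fell by 1.52 (SE 0.0756), and Vav2, an exchange factor related to Vav1, by 0.61. Cd81, the tetraspanin of the coreceptor complex, went from 225 ± 8.63 CPM (SD, n = 3) in WT to 116 ± 0.768 in EuMyc (log2 -0.95, SE 0.0736).

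The PI3 kinase branch was the only group with a member that rose. Akt1, the kinase that PI3 kinase activates (chromosome 12, 112653821 to 112674884), read 186, 167 and 161 CPM (WT), 166, 171 and 152 (Max KO), 363, 396 and 396 (EuMyc) and 188, 178 and 163 (EuMyc Max KO). EuMyc libraries were above every other library, by 2.25-fold against WT (log2 1.17, SE 0.0747; edgeR's adjusted p = 1.89e-08). AKT1 acts in growth signalling of most cell types, not in B cells alone. Pik3cd, the catalytic subunit used by lymphocytes, fell by 0.74 and Pik3ap1, the adaptor BCAP, by 0.47. Pik3r1, the regulatory subunit p85 alpha, had a log2 fold change of -0.25 (SE 0.113) and did not pass (adjusted p = 0.0613, edgeR), although its 3 EuMyc libraries were below those of WT. It did pass by DESeq2 (adjusted p = 0.0432) and, among other settings of edgeR, with upper-quartile factors (0.00564), with library totals (0.0127), in a fit of only the groups compared (0.00277) and without EuMyc Max KO replicate 1 (0.0186) or 3 (0.00502), libraries that enter only through the shared spread.

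**Figure D2:**
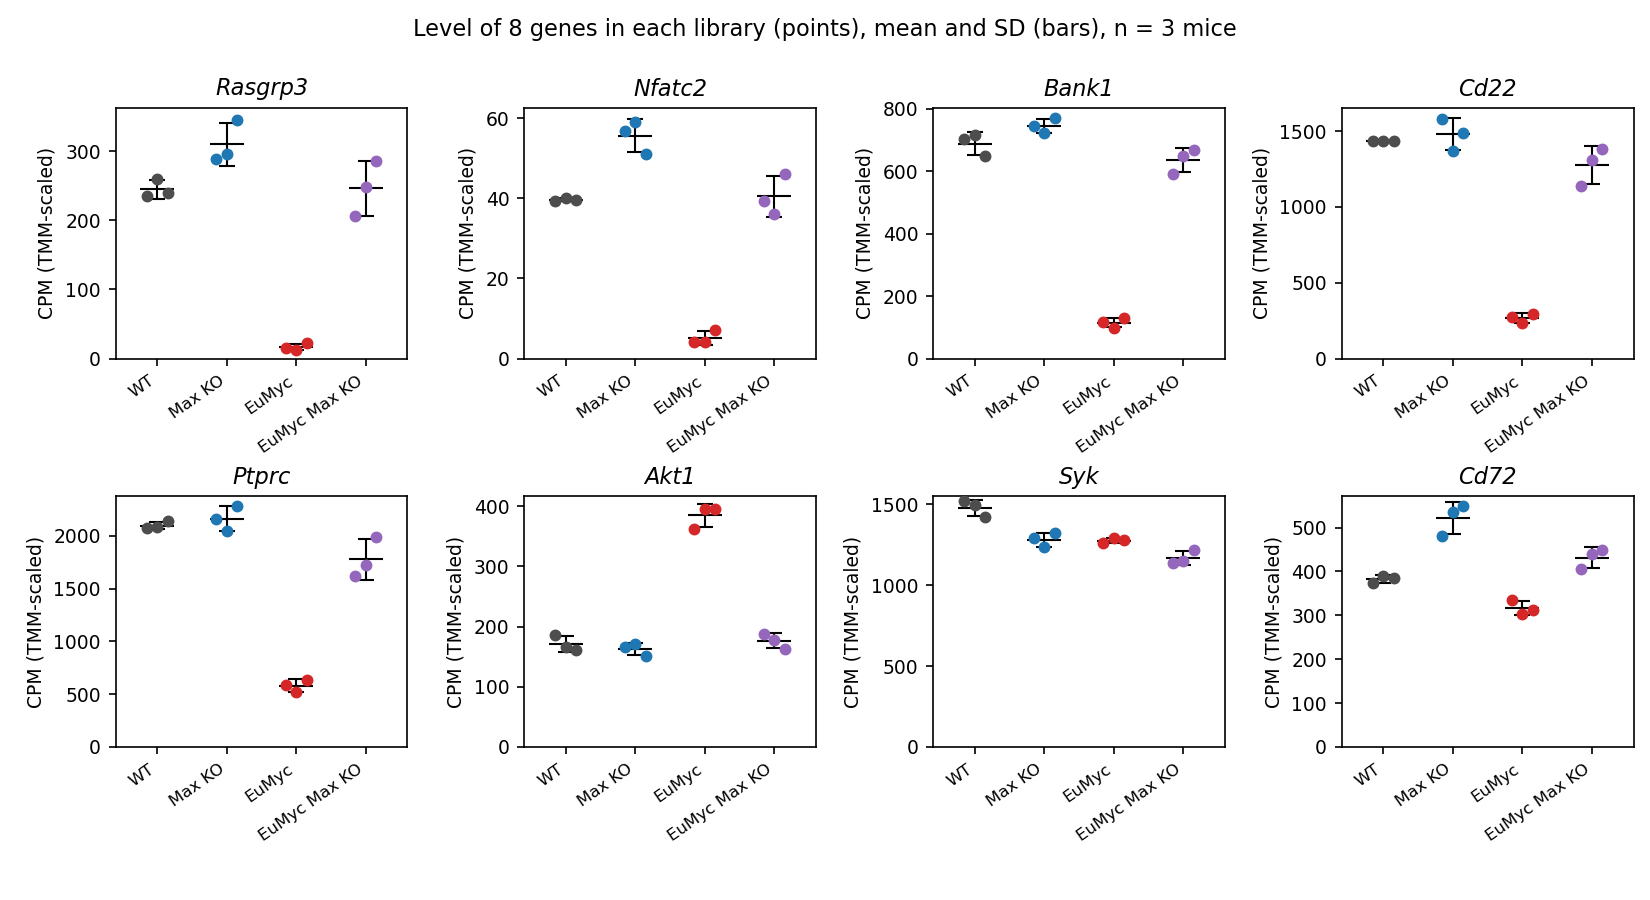
Points are CPM in each library for 8 members, with a bar for the mean and whiskers for the SD of 3 mice, on linear axes from 0. EuMyc libraries are lowest for Rasgrp3, Nfatc2, Bank1, Cd22, Ptprc and Cd72 and highest for Akt1, and Syk is highest in WT.

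All 8 inhibitory members fell with the transgene too, 3 of them by over 1.5 log2 units. Cd22, the sialic acid receptor that recruits SHP-1 (chromosome 7, 30865402 to 30880342), read 1436, 1437 and 1434 CPM (WT), 1580, 1368 and 1487 (Max KO), 274, 232 and 294 (EuMyc) and 1136, 1310 and 1379 (EuMyc Max KO). Its EuMyc libraries stood far below the rest, by 5.39-fold against WT (log2 -2.43, SE 0.1001; edgeR's adjusted p = 6.69e-10). Fcgr2b, the inhibitory Fc receptor that senses immune complexes, read 146, 129 and 145 CPM (WT), 129, 123 and 147 (Max KO), 39.5, 29.6 and 46.8 (EuMyc) and 99.6, 110 and 105 (EuMyc Max KO) (EuMyc against WT log2 -1.86, SE 0.136). WT and Max KO overlapped, EuMyc was lowest, and EuMyc Max KO lay between. Cd72, a C-type lectin receptor of B cells, differed from these: it read 374, 391 and 385 CPM (WT), 481, 535 and 550 (Max KO), 335, 303 and 312 (EuMyc) and 405, 440 and 450 (EuMyc Max KO). Its decrease with the transgene was 1.21-fold (log2 -0.27, SE 0.0683), and the 6 libraries without Max were its 6 highest.

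Downstream of these receptors, Ptpn6 (SHP-1) read 1204, 1170 and 1186 CPM (WT), 1030, 1106 and 1100 (Max KO), 384, 364 and 420 (EuMyc) and 853, 915 and 973 (EuMyc Max KO). The transgene went with a 3.05-fold lower level (log2 -1.61, SE 0.0723), and EuMyc Max KO libraries stood between EuMyc and the groups without the transgene. Per kb of exon, Ptpn6 was the most abundant member in WT (424 CPM per kb), ahead of Cd22 (285), Blk (234), Syk (158) and Lyn (150). Inpp5d (SHIP-1) moved little, at 464, 427 and 479 CPM (WT), 464, 434 and 464 (Max KO), 355, 389 and 387 (EuMyc) and 414, 399 and 421 (EuMyc Max KO) (EuMyc against WT log2 -0.28, SE 0.0635). Dok3, an adaptor that restrains calcium signalling with GRB2, read 326, 327 and 295 CPM (WT), 274, 269 and 270 (Max KO), 290, 270 and 294 (EuMyc) and 238, 240 and 260 (EuMyc Max KO). WT was highest and EuMyc Max KO lowest, and the decrease in EuMyc was 0.15 log2 units (edgeR's adjusted p = 0.0376). That call was lost with no filter on low counts (adjusted p = 0.0745, edgeR) and without WT replicate 1 or 2, EuMyc replicate 1 or 2 or EuMyc Max KO replicate 2 (adjusted p up to 0.158, edgeR). The ubiquitin ligases Cbl (-0.60, SE 0.214) and Cblb (-0.63, SE 0.0942) end signalling by marking SYK and other partners. Cbl lost its call with no filter and without WT replicate 2 or 3 or any EuMyc replicate (adjusted p of 0.0551 to 0.0945, edgeR).

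The 4 members of dual role fell as well. Bank1, a B cell scaffold for LYN and calcium channels (chromosome 3, 136053363 to 136326066), read 702, 716 and 648 CPM (WT), 745, 724 and 769 (Max KO), 117, 99.4 and 131 (EuMyc) and 592, 650 and 667 (EuMyc Max KO), a decrease of 5.96-fold with the transgene (log2 -2.58, SE 0.0948). Ptprc encodes CD45, the phosphatase that removes the inhibitory phosphate of SRC family kinases, and B220, the form used to isolate these cells, is one of its isoforms. It read 2074, 2079 and 2135 CPM (WT), 2156, 2046 and 2284 (Max KO), 589, 517 and 636 (EuMyc) and 1618, 1722 and 1988 (EuMyc Max KO). Total Ptprc was thus 3.61-fold lower in EuMyc than in WT (log2 -1.85, SE 0.0934) among cells selected for its product, and counts per gene do not separate isoforms. Lyn, the kinase that both starts signalling and phosphorylates the inhibitory receptors, read 648, 590 and 596 CPM (WT), 583, 548 and 568 (Max KO), 342, 312 and 340 (EuMyc) and 528, 517 and 546 (EuMyc Max KO) (EuMyc against WT log2 -0.88, SE 0.0625). Grb2, the adaptor that joins receptors to RAS and DOK3, read 400, 384 and 381 CPM (WT), 379, 401 and 373 (Max KO), 223, 219 and 236 (EuMyc) and 358, 363 and 386 (EuMyc Max KO) (log2 -0.78, SE 0.0573). For both genes every EuMyc library lay below all the others.

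Loss of Max in EuMyc cells went with higher levels of most members. Against EuMyc, 25 of 33 members rose in EuMyc Max KO and 2, Akt1 and Dok3, fell, where 73.7% of all tested genes were called (37.6% rose and 36.1% fell). This comparison shares its EuMyc libraries with the one above, so the values of both are not independent. The members' median log2 fold change was 0.68, against 0.03 over all tested genes, and 75.9% of all tested genes and 32 members had groups that did not overlap. Markers of other cells rose in the same comparison: 11 of 11 tested T cell genes (summed level 32.7 to 35.1 CPM in EuMyc, 174 to 183 in EuMyc Max KO) and 9 of 9 NK cell genes (4.16 to 10.3, then 46.7 to 66). So did 11 of 12 macrophage genes (739 to 888, then 2610 to 4390) and 9 of 11 dendritic cell genes (246 to 288, then 648 to 751), with 1 lower in each list. All 8 tested erythroid genes (314 to 403, then 953 to 5280) and all 6 tested neutrophil genes (10.1 to 14.5, then 29.7 to 218) rose too. Lck (mean of 91.2 CPM) and Irf8 (541) were again the largest parts of the T cell and dendritic cell sums in EuMyc Max KO. The part of these other cells in the result was not tested. Rasgrp3 rose 14.6-fold (log2 3.86, SE 0.191), Nfatc2 7.81-fold (2.96, SE 0.174), Bank1 5.51-fold (2.46, SE 0.0944) and Cd22 4.78-fold (2.26, SE 0.0995). Nfatc1 rose by 1.93, Ptprc by 1.61, Fcgr2b by 1.44, Ptpn6 by 1.23 and Cd81 by 1.15 log2 units. Akt1 fell by 1.12 (SE 0.0746) and Dok3 by 0.21 (SE 0.0603). Dok3 did not pass when libraries were scaled by upper-quartile factors (adjusted p = 0.117, edgeR) or by their totals (0.22), or with EuMyc Max KO represented by replicate 3 (0.189). The 6 members that did not pass were Syk (-0.13), Btk (-0.13), Blnk (0.02), Vav1 (0.12), Plcg2 (0.15) and Inpp5d (0.12). With EuMyc Max KO represented by replicate 3, without the 2 libraries of highest erythroid signal, the counts were 25 higher and 1 lower.

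Without Max, few members were called between cells with and without the transgene. Myc itself averaged 522 CPM in EuMyc Max KO and 126 in Max KO, against 1010 in EuMyc and 105.5 in WT, so the transgene comparisons with and without Max differ in the level of Myc RNA as well. The contrast of EuMyc Max KO with Max KO shares no library with that of EuMyc and WT, and in it 5 members fell and none rose by edgeR's quasi-likelihood test (0 higher and 8 lower by DESeq2), where 14.4% of all tested genes were called (3.69% fell and 10.7% rose). At an unadjusted p under 0.05, 19 members differed, against 3879 of all 12878 tested genes. In 22 members every EuMyc Max KO library lay below all Max KO libraries, and in 0 above. Of all 12878 tested genes 1947 lay below and 2212 above (32.3% with groups that did not overlap). The 5 were Nfatc1 (-0.30, SE 0.081), Cd72 (-0.27, SE 0.0682), Ptpn6 (-0.24, SE 0.0705), Pik3ap1 (-0.20) and Pik3cd (-0.18), and the median of all members was -0.18. This count went to 0 without Max KO replicate 3 or without EuMyc Max KO replicate 1 or 2, and to 12 without EuMyc Max KO replicate 3. The single calls thus changed with the libraries used, and the cause was not tested. Rasgrp3 had a log2 fold change of -0.33 (SE 0.164), Bank1 of -0.23, Cd22 of -0.21 and Akt1 of 0.12, none of which passed.

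**Figure D3:**
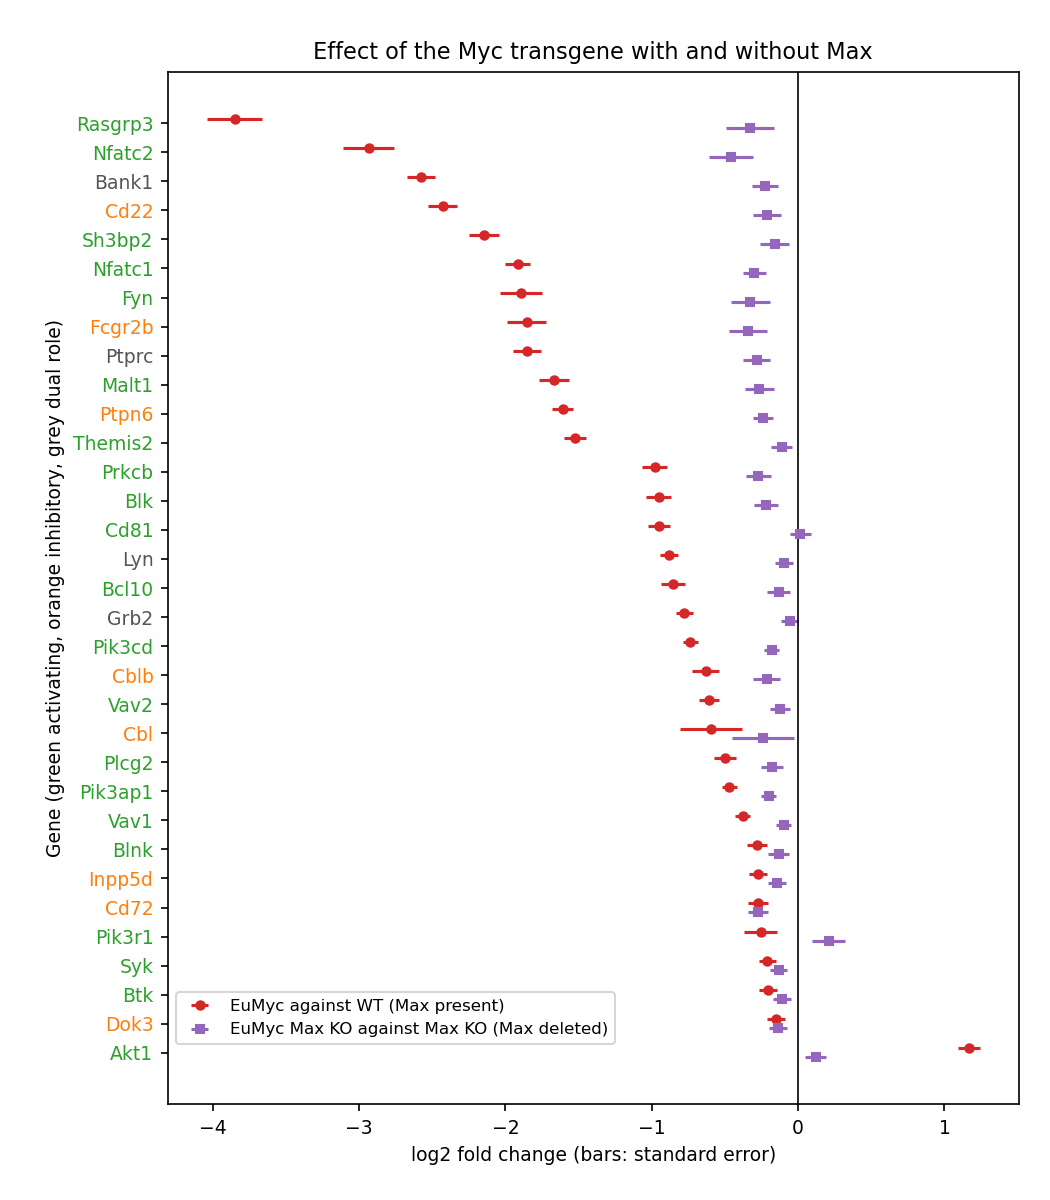
Log2 fold changes of the 33 members for the transgene with Max (red circles, EuMyc against WT) and without it (purple squares, EuMyc Max KO against Max KO), with standard errors, ordered by the first. Red values run from -3.85 to 1.17, and purple values from -0.46 to 0.21.

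The difference between these effects was tested as the interaction of transgene and Max loss. It passed for 26 of 33 members, where 55.7% of all tested genes passed: 25 members were positive (less of a decrease without Max; 27.8% of all genes) and Akt1 was negative (27.9% of all genes). The median over the members was 0.72, against 0.02 over all tested genes. By part, 17 of 21 activating members were positive and 1 negative, 4 of 8 inhibitory members were positive, and all 4 dual members were. The members whose effects of the transgene did not differ by this test were Syk (0.08, SE 0.0822), Btk (0.10), Blnk (0.15), Cd72 (-0.000838, SE 0.0967), Inpp5d (0.13), Dok3 (0.01) and Cbl (0.35, SE 0.3). Among them are SYK and BTK, and the 3 inhibitory members with the smallest decreases in EuMyc (Dok3, Cd72 and Inpp5d). Pik3r1, at 0.46, lost its call without any of 4 libraries (WT 2, Max KO 2, EuMyc 3 or EuMyc Max KO 2; adjusted p up to 0.0665, edgeR), and with EuMyc Max KO represented by replicate 3 it was 0.14 (adjusted p = 0.33).

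EuMyc Max KO cells were then set against WT directly. Of 33 members 14 fell and none rose by edgeR's quasi-likelihood test (0 higher and 16 lower by DESeq2), where 27.8% of all tested genes were called (10.8% fell and 17% rose). At an unadjusted p under 0.05, 18 members differed, against 5134 of all 12878 tested genes. In 17 members all EuMyc Max KO libraries lay below WT and in 2 above. Of all tested genes 41.8% had groups that did not overlap (2529 below and 2860 above). The median over the members was -0.17 and the lowest value -0.53, for Malt1. In the same comparison 6 of 8 B lineage markers fell (median -0.34, sums of 13300 to 15900 CPM against 18200 to 20800 in WT). Those that rose were 10 of 12 macrophage, 6 of 6 tested neutrophil, 8 of 8 tested erythroid and 5 of 9 tested pro-B and pre-B markers. The part that the cells behind these markers have in the result was not tested. Sh3bp2 fell by 0.46, Fcgr2b by 0.42, Ptpn6 by 0.38, Dok3 by 0.36, Syk by 0.34 and Btk by 0.33 log2 units. Of the 5 members with the lowest fold changes in EuMyc against WT, Sh3bp2 is thus among those that fell here, and the other 4 did not pass: Rasgrp3 differed by 0.01 (SE 0.164), Nfatc2 by 0.03 (SE 0.152), Bank1 by -0.11 (SE 0.089) and Cd22 by -0.17 (SE 0.0948). Without replicates 1 and 2 of EuMyc Max KO, only 1 member fell, Fyn (log2 -0.50), a fit in which 1 library is assumed to vary like the other groups.

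In cells without the transgene, 6 of 33 members were called upon loss of Max. In Max KO against WT, 3 rose and 3 fell (4 and 6 by DESeq2), where 7.27% of all tested genes rose and 7.74% fell, a share of members (18.2%) close to the 15% of all genes called. At an unadjusted p under 0.05, 15 members differed, as did 3951 of all 12878 tested genes. Cd72 rose 1.36-fold (log2 0.45, SE 0.0683; edgeR's adjusted p = 0.00157), Nfatc1 by 0.31 (SE 0.081) and Nfatc2 by 0.49 (SE 0.152). Btk fell by 0.22, Dok3 by 0.22 and Syk by 0.20 log2 units. All 6 calls had groups that did not overlap, as did 20 members and 38.1% of all tested genes. Cd72 kept its call in each fit that left out a library, and the others did not. The lower calls went to 0 without WT replicate 1, Max KO replicate 1 or Max KO replicate 2, and the higher calls to 1 without WT replicate 1 or 2 or Max KO replicate 1 or 3. Macrophage markers were also higher in this comparison (2400 to 3460 CPM in Max KO, 1500 to 1840 in WT), and their part in these values was not tested.

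Activating and inhibitory members were compared as parts by their mean log2 CPM in each library, relative to the WT mean, as a description with no test. Activating members were at -1.06 ± 0.0938 (SD, n = 3) in EuMyc and inhibitory members at -0.98 ± 0.0979, and the libraries of both parts overlapped. Within each EuMyc library the activating part was the lower one relative to WT, by gaps of -0.157, -0.0346 and -0.0469. The gaps of the WT libraries were 0.0305, -0.0199 and -0.0106. Dual members were lower, at -1.53 ± 0.117. In Max KO the means were 0.01 ± 0.0176 for activating and 0.05 ± 0.0665 for inhibitory members, and in EuMyc Max KO -0.16 ± 0.0348 and -0.18 ± 0.123. The gap between the parts differed from WT by -0.08 ± 0.0674 in EuMyc, -0.05 ± 0.0606 in Max KO and 0.02 ± 0.099 in EuMyc Max KO. Each of these small gaps moved by over 1.5 times with single libraries: the EuMyc gap was -0.0408 without EuMyc replicate 1, the Max KO gap -0.0112 without Max KO replicate 3, and the EuMyc Max KO gap ran from -0.0379 without its replicate 1 to 0.0496 without its replicate 2. This holds for the mean only: with medians over members in place of means, the EuMyc gap was -0.623, and the inhibitory part holds members with little change (Dok3, Cd72, Inpp5d) and members with much (Cd22, Fcgr2b, Ptpn6).

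**Figure D4:**
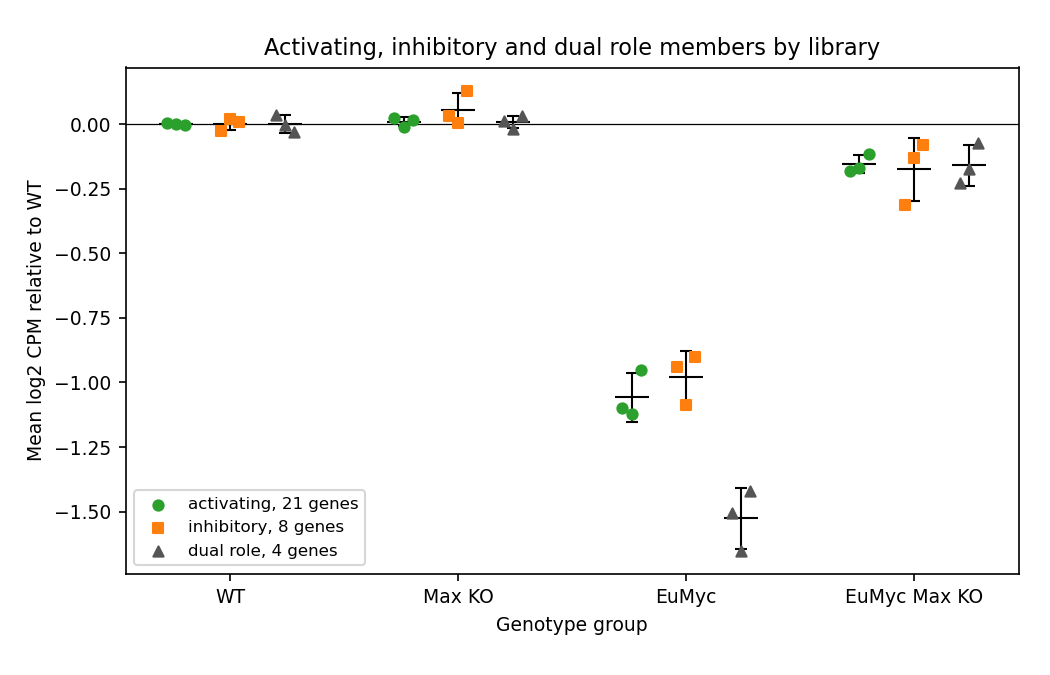
Points are the mean log2 CPM of the activating (21 genes), inhibitory (8) and dual (4) members in each library relative to WT, with mean and SD of 3 mice. In EuMyc all 3 parts are lower, the dual one most, and in the other groups all libraries lie between -0.31 and 0.13.

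Other genes of the pathway, taken from 6 lists of 108 genes that hold no member, gave less uniform counts. In EuMyc against WT 70 fell and 14 rose, with a median of -0.59, and 77.8% were called against 71.6% of all tested genes. The share called was under that of all genes for PI3 kinase partners (55.6%), NF-kB kinases (63.6%) and RAS and MAP kinase genes (68.4%). Other receptors and negative regulators gave 24 lower and 1 higher of 27, among them Ptpn22, a phosphatase that restrains SRC family kinases (126 to 24.5 CPM, log2 -2.37), and Pag1, which anchors their inhibitor CSK (-1.91). Adaptors and actin regulators gave 13 lower and 1 higher of 16, with Vav3 at -2.44 and Tespa1 at -2.45, while calcium genes gave 10 lower and 5 higher of 17, with the calcium release channel genes Itpr1 (-1.80) and Itpr3 (-1.36). RAS and MAP kinase genes gave 10 lower and 3 higher of 19, with Dusp6, a phosphatase that ERK signalling induces, at -2.36 and Map2k1, the ERK kinase MEK1, at -1.34. PI3 kinase partners gave 7 lower and 3 higher of 18, with Dapp1, which reads the PI3 kinase product, at -1.24 and Tec at -1.84, and NF-kB kinases 6 lower and 1 higher of 11, with Tnfaip3, an inhibitor of NF-kB, at -1.81. Against EuMyc, 71 of the 108 rose and 18 fell in EuMyc Max KO (82.4% called, all genes 73.7%). Against Max KO, 3 rose and 8 fell (10.2%, all genes 14.4%), and the interaction passed for 64 upward and 11 downward (69.4%, all genes 55.7%). In Max KO against WT 15 rose and 6 fell (19.4%, all genes 15%).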

How the data were processed

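RNA-seq libraries of B220+ splenocytes from 12 mice were analysed. The values deposited by the authors are raw counts of reads for each gene symbol, in a separate table for each mouse. Per the submitters' processing notes, bcl2fastq 1.8.4, TopHat2 2.1.0 and HTSeq 0.6.1 were used with build mm10; no source used here names the annotation or strand setting, so reads of overlapping or antisense genes are uncertain. The 5 summary rows without a gene stayed out (reads outside genes made up 12.5% to 20.3% of a library). Each file was one library, and same-group pairs differed by more than sampling noise (chi-square per degree of freedom 7.67 to 68.6).

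Counts were analysed in R 4.3.3 with edgeR 4.0.16 (filterByExpr on the 4 groups, TMM, robust quasi-likelihood fit over all 12 libraries, 8 residual degrees of freedom, common biological coefficient of variation 13.7%). The p-values were Benjamini-Hochberg adjusted over 12878 genes, with a threshold of 0.05, for 6 contrasts. An exact permutation test of 3 mice against 3 cannot go below 0.1. Values are relative to the RNA sequenced. Log2 CPM used a prior count of 2. Gene positions and exon lengths are those of GENCODE vM21 on mm10. The procedure was also run on simulated counts in which few genes changed, so that run gives no error rate for the EuMyc contrasts. Alternatives were other scalings, no filter, DESeq2 1.42.0, fits of only the groups compared, the replicate number as a block, and each library left out. Members, roles and lists were chosen with earlier results of these data known. The rule for full values takes, in the first 3 contrasts, the top 5 and bottom 5 called members by fold change, the inhibitory receptors and phosphatases with Dok3, and the dual members, and from each pathway list the 2 called genes of smallest p in EuMyc against WT. A gene that this rule names is not reported here.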

Additional observations from a re-analysis of the deposited data

Results flagged for a closer look

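The effect of Max loss differed between cells with and without the transgene, by the interaction term of edgeR's model (log2 units, EuMyc Max KO against EuMyc minus Max KO against WT), for 26 members. Among activating members the values were 3.52 for Rasgrp3, 2.48 for Nfatc2, 1.99 for Sh3bp2, 1.62 for Nfatc1, 1.57 for Fyn, 1.41 for Themis2, 1.40 for Malt1, 0.97 for Cd81, 0.74 for Blk, 0.72 for Bcl10, 0.71 for Prkcb, 0.56 for Pik3cd, 0.49 for Vav2, 0.46 for Pik3r1, 0.32 for Plcg2, 0.28 for Vav1, 0.27 for Pik3ap1 and -1.05 for Akt1. Inhibitory members gave 2.22 for Cd22, 1.51 for Fcgr2b, 1.37 for Ptpn6 and 0.42 for Cblb. Dual members gave 2.35 for Bank1, 1.57 for Ptprc, 0.79 for Lyn and 0.72 for Grb2. Groups of 3 libraries are too small for a test of single outlying samples.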

How the results depend on the processing

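In EuMyc against WT 29 to 32 members fell, in EuMyc Max KO against EuMyc 25 to 28 rose, and the interaction was positive for 24 to 26, over all alternatives run. Counts in the other contrasts were small and moved. In Max KO against WT the lower calls (3) became 5 with RLE factors, 0 with library totals, 6 with DESeq2 and 6 with EuMyc Max KO represented by replicate 3, and the higher calls (3) became 7 with library totals and 5 with only the groups compared. The lower calls in EuMyc Max KO against EuMyc (2) became 1 with upper-quartile factors, library totals or EuMyc Max KO replicate 3 alone. The lower calls in EuMyc Max KO against Max KO (5) became 8 with upper-quartile factors or DESeq2, 3 with no filter and 2 with only the groups compared. With only the groups compared all 5 members named above lost their call, and the 2 called were other members. In EuMyc Max KO against WT the higher calls (0) became 1 with library totals, and the lower calls (14) became 1 with EuMyc Max KO replicate 3 alone. That last setting was chosen after seeing the data, and fewer samples enter it; for the other settings the cause was not tested. With 1 library left out, Max KO against WT gave 1 to 4 higher and 0 to 5 lower, EuMyc Max KO against Max KO 0 to 1 higher and 0 to 12 lower, and EuMyc Max KO against WT 0 to 2 higher and 10 to 15 lower. Upper-quartile factors moved the median of all genes in EuMyc against WT to -0.12. The gap between activating and inhibitory members in EuMyc (-0.0795) became -0.154 with dual members counted as activating, 0.103 with them as inhibitory and -0.623 with medians, and in Max KO 0.0738 with medians. With 1 library left out it ran from -0.102 to -0.0408 in EuMyc, -0.0658 to -0.0112 in Max KO and -0.0379 to 0.0496 in EuMyc Max KO. Of 3927 checks of single members, 3708 kept their side of the threshold, 125 lost and 94 gained a call, and 0 called results reversed direction. A change of sign in a member called in neither fit was counted as kept.

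The replicate number as a block gave 1 higher and 15 lower in EuMyc Max KO against WT and 0 and 6 in EuMyc Max KO against Max KO, and the same counts as without the block in the other contrasts. Equal counts did not mean the same members: in EuMyc against WT the block ended the call of Dok3 (adjusted p = 0.0546, edgeR) and gave one to Pik3r1 (0.0293), and in Max KO against WT it ended those of Syk and Nfatc2 and gave calls to Vav2 and Sh3bp2. The labels do not say what a number marks. Deviations of 4 of 18 same-numbered pairs correlated above 0.1 (range -0.117 to 0.344; 0.179, 0.344 and 0.0951 between WT and Max KO), so the pairing was not used, while 8 of 12 libraries correlated best with their own number, a hint from the data and not the design.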
